A study of Oryza sativa Indica Group with 23 samples.

Results

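Homeobox transcription factor genes were followed in rice root RNA, with and without salt. A gene was a member if its symbol or a synonym in the RefSeq gene table was HOX, WOX, ROC, HOS or OSH followed by a number, or GL2 with a hyphen and a number, with or without the prefix Os. The table held 54 such genes, and 49 of them had a probe set listed for that gene alone, out of 17905 genes measured this way on the array. Each gene was represented by its single-gene probe set with the highest mean over all arrays, and no difference between groups entered the choice. HOX3, ROC9, OSH10, OSH15 and WOX5 had no such probe set and were not analysed here. The only probe set for OSH15 is listed for several genes.

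The series holds 23 Affymetrix arrays of root RNA, in 8 groups. Roots under salt were measured on 3 arrays each for FL478, IR29, IR63731 and Pokkali, and control roots on 3 arrays each for FL478, IR63731 and Pokkali and on 2 for IR29. FL478 is a recombinant inbred line bred from IR29 and Pokkali, IR29 is a salt-sensitive variety, and Pokkali is a salt-tolerant landrace, while IR63731 is another breeding line. All plants grew in sand with nutrient solution and were harvested on day 30. For the salt groups sodium and calcium chloride entered the solution from day 22, in 2 steps over 3 days, up to 7.4 dS per m. Each genotype is represented by a single line. The labels call the arrays biological replicates but do not say how many plants gave an array or what a replicate number stands for, so the spread between arrays given here is that of these samples.

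Homeobox proteins bind DNA through a homeodomain and act as regulators of development in plants and animals. In plants the HD-Zip proteins join the homeodomain to a leucine zipper: class I members respond to drought and abscisic acid, class II members act in shade and auxin responses, class III members set vascular and organ polarity under control of a conserved microRNA, and class IV members act in the epidermis. KNOX class I proteins keep shoot meristems undifferentiated, KNOX class II proteins act in differentiating organs, and WOX proteins maintain stem cell niches, including the quiescent centre of the root and the founder cells of crown roots.

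The values are log2 intensities, 1 per probe set and array, so a difference of 1 stands for a factor of 2. Array medians lay between 4.31 and 4.41. Each array was placed by probe sets at least 2 log2 units higher or lower in 1 genotype than in the rest, on a scale where 1 is that genotype. On its own genotype's scale 20 arrays scored 0.92 to 1.04. FL478 salt replicate 2 scored only 0.39 there, with 0.60 on the IR63731 scale. FL478 control replicate 3 scored 0.81 and, on the IR63731 scale, 0.22. IR29 control replicate 1 scored 0.55 on its own scale and 0.48 on that of IR63731. These 3 arrays are called intermediate. Fits without them are therefore also given for salt in the mean of 4 genotypes and for FL478 minus Pokkali in control roots. Other values keep these arrays in unless stated. The root label was checked with genes of the endodermis: the silicon transporter genes LSI1 and LSI2 and the Casparian strip gene CASP1 had mean values of 13.4, 11.98 and 9.93, and the 3 root genes named RCC2, RCC3 and RCG2 were not matched by name. The shoot photosynthesis genes RBCS, CAB2R, PSAH and RCA had means of 6.58, 5.89, 4.41 and 4.22, and CAB2R reached 9.54 in control roots. The seed gene GLUA2 had a mean of 8.1, and the other measured seed genes had means from 2.53 to 5.17. A separate set of 64 probe sets for reporter genes had a median of 3.05 and a 90th percentile of 4.01. Of the 49 homeobox probe sets, 36 had a mean above that percentile. The 13 at or under it were HOX24, HOX17, ROC1, ROC2, ROC3, ROC6, ROC7, ROC8, OSH1, OSH43, WOX7, WOX10 and WOX11, and values this low are also seen where no rice gene is targeted. In bulk root RNA, fewer cells of a type and less RNA per cell cannot be told apart.

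The first comparison asked which homeobox genes differ between salt and control roots on average over the 4 genotypes. Salt roots had more signal for 7 of 49 homeobox genes and less for 0, with changes between 1.15-fold and 1.46-fold. The epidermal genes ROC4 and ROC5 rose, as did the vascular HD-Zip II gene HOX1, the HD-Zip I gene HOX4, the KNOX II gene HOS59 and the WOX genes WOX8 and WOX9. The threshold was an adjusted p under 0.05 in limma with Benjamini-Hochberg adjustment over 57194 rice probe sets. The 7 genes are 14.3% of the members, against 4.95% of all probe sets that rose and 10.7% of the 17905 probe sets that represent a gene. For falling genes the shares over all probe sets and over gene probe sets were 3.36% and 5.41%. Without adjustment, 12 members had a p under 0.05. Over all 49, 32 changes lay above 0 and 17 below it, with a median of 0.06 on the log2 scale, against -0.01 over all probe sets. The 42 members that did not pass had changes between -0.18 and 0.29. None of the 49 changed by a factor of 2 in this mean. By sign alone, most of it untested and close to 0, 11 members were above 0 in all 4 genotypes, 13 in 3, 12 in 2, 10 in 1 and 3 in 0.

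**Figure D1:**
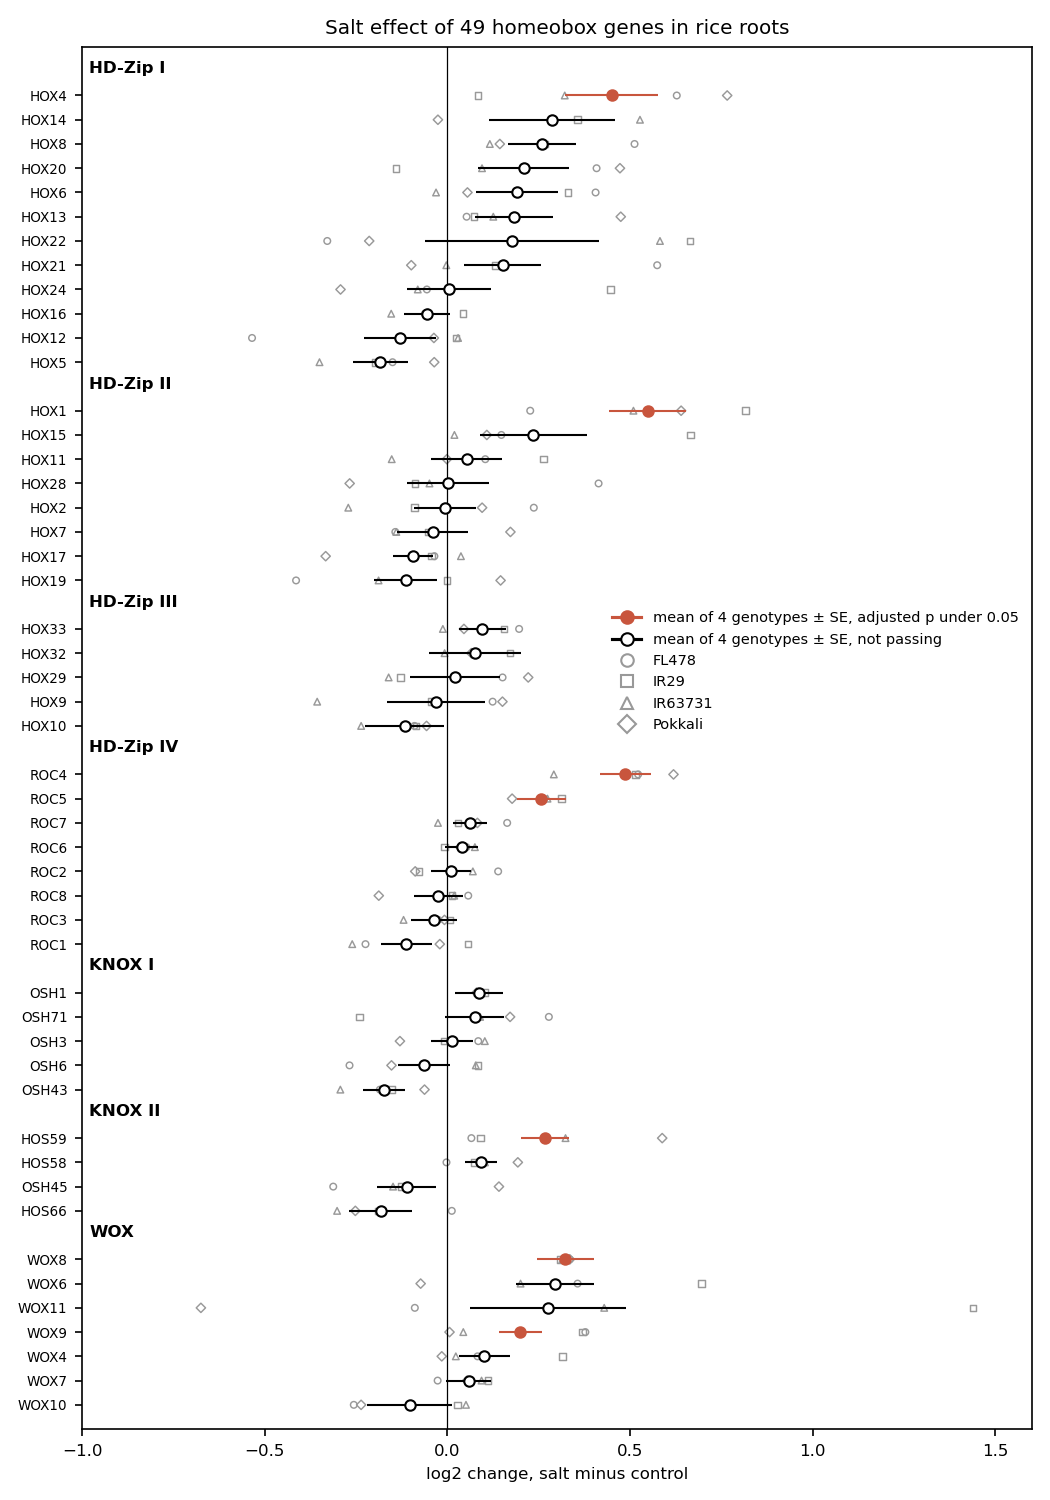
Salt minus control change (log2) of each of the 49 homeobox genes, by class; circles with bars are the mean of 4 genotypes ± SE, filled where the adjusted p is under 0.05, and small open symbols are the 4 genotypes. The 7 filled genes lie between 0.20 and 0.55, and WOX11 has the widest scatter of genotypes, from -0.67 in Pokkali to 1.44 in IR29.

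A measure of transcript ends and a clock gene measure had unlike means in the treatments. For both measures the salt and control arrays overlapped, and the differences were not tested. The 3 prime minus 5 prime signal of control transcripts averaged 0.69 ± 0.10 in salt roots and 0.60 ± 0.06 in control roots (SD, n = 12 and 11). A clock measure, the mean of PCL1, PRR1 and GI minus CCA1, averaged -1.15 ± 2.10 in salt roots and -2.98 ± 2.19 in control roots (log2, SD, n = 12 and 11). With the first as a covariate 3 members passed, ROC4, HOX1 and HOS59. With the second, 5 passed, namely ROC4, HOX1, ROC5, WOX9 and also HOX13. With the 3 intermediate arrays left out 4 members passed, ROC4, HOX1, HOX4 and also HOX13, whose change was then 0.36 (adjusted p = 0.0269). ROC4 and HOX1 passed in each of these fits, and in every fit that left out a single array.

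HD-Zip IV proteins act in the outer cell layer of plant organs, and 2 of the 8 measured genes rose. ROC4, which in rice leaves promotes cuticular wax formation, had the smallest adjusted p of the 49 members. Its values were 5.33, 5.20 and 5.51 in FL478 salt roots, against 4.81, 4.86 and 4.81 in FL478 control roots, and 5.66, 5.70 and 5.55 in IR29 salt roots, against 5.02 and 5.22 in IR29 control roots. They were 5.19, 5.19 and 5.58 in IR63731 salt roots, against 4.90, 4.94 and 5.26 in IR63731 control roots, and 5.28, 5.25 and 5.63 in Pokkali salt roots, against 4.71, 4.98 and 4.62 in Pokkali control roots. Each of the 12 salt arrays exceeded its genotype's control mean, and the salt and control arrays did not overlap in FL478, IR29 and Pokkali. In IR63731 control replicate 3, at 5.26, lay above 2 of the salt arrays. The mean change was 0.49 ± 0.07 (SE, adjusted p = 0.000261, limma), or 1.40-fold. ROC5, which limits bulliform cell number and leaf rolling in rice, gave 8.28, 8.23 and 8.58 in FL478 salt roots, against 8.02, 8.14 and 8.12 in FL478 control roots, and 8.64, 8.60 and 8.58 in IR29 salt roots, against 8.18 and 8.41 in IR29 control roots. It gave 8.18, 8.07 and 8.62 in IR63731 salt roots, against 7.90, 7.93 and 8.21 in IR63731 control roots, and 8.08, 8.01 and 8.28 in Pokkali salt roots, against 7.96, 7.99 and 7.89 in Pokkali control roots. Again all 12 salt arrays exceeded the control mean of their genotype, and groups did not overlap in the same 3 genotypes. The change of ROC5 was smaller, 0.26 ± 0.07 (SE, adjusted p = 0.0210, limma), and was lost without IR29 control replicate 1, where the adjusted p was 0.0727. Salt arrays that did not overlap with control arrays and lay above them in at least 3 genotypes were seen for 3 members, ROC4, ROC5 and HOS59, and for 2.19% of all probe sets. Deviations of ROC4 and ROC5 from their group means had an r of 0.885 over 23 arrays, the next to highest of all 1176 pairs of members, which share arrays and replicate numbers. The other 6 members of the class, ROC1, ROC2, ROC3, ROC6, ROC7 and ROC8, had means from 2.93 to 3.73, within the range of the reporter probe sets, and none passed. The median change over the 8 genes was 0.02.

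**Figure D2:**
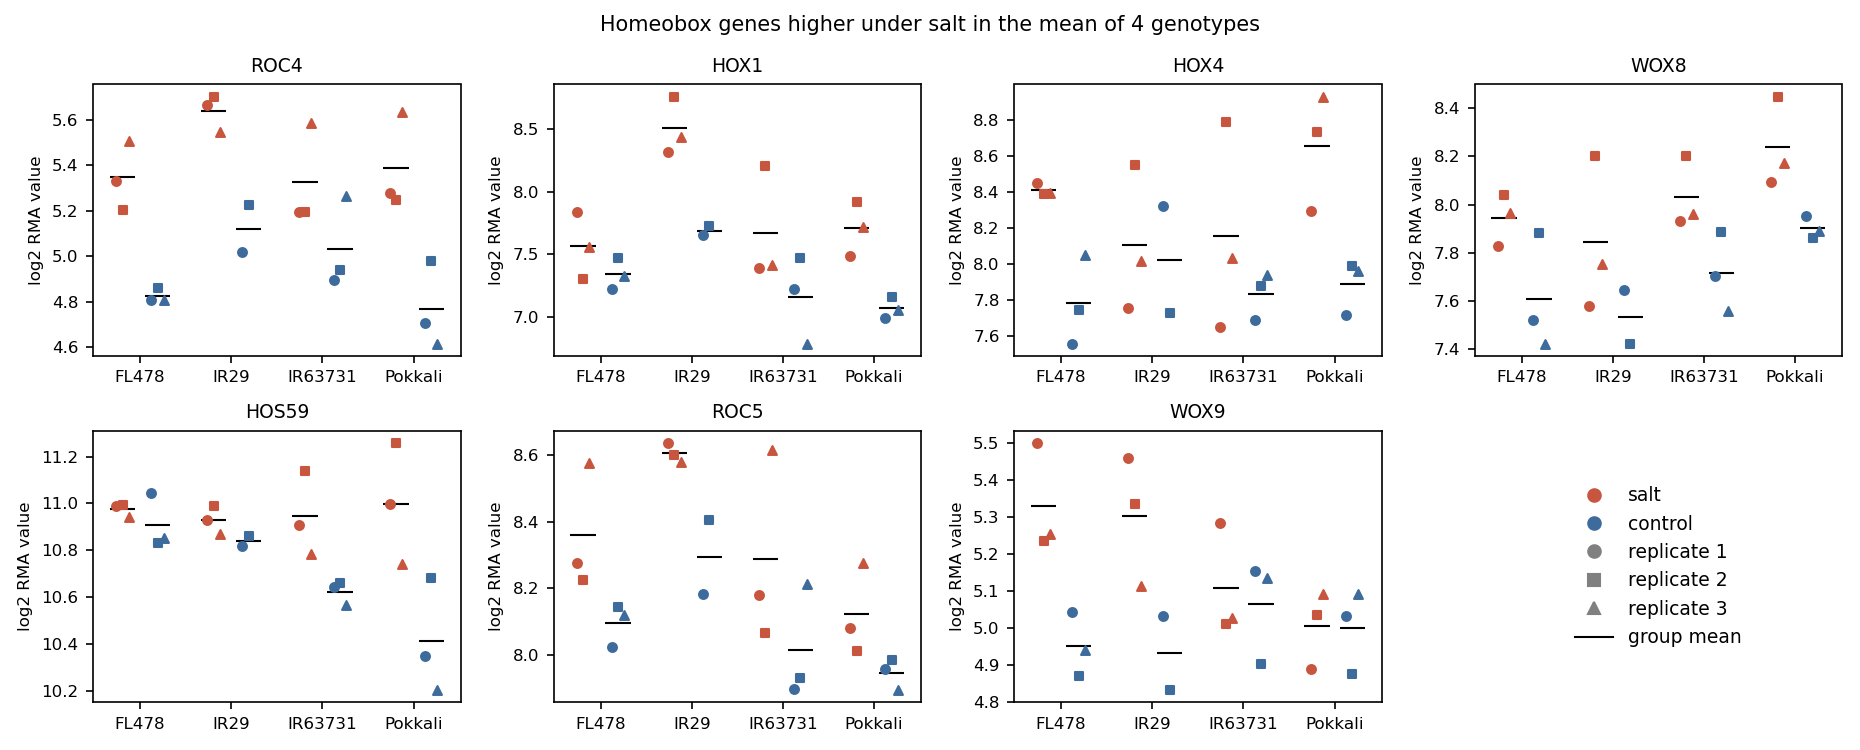
Log2 value on each array for the 7 homeobox genes that rose in the mean of 4 genotypes; red is salt, blue is control, symbols give the replicate number and bars are group means. ROC4 and ROC5 separate salt from control in FL478, IR29 and Pokkali, and HOS59 in IR29, IR63731 and Pokkali.

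Among the 12 HD-Zip I genes, HOX4 rose and none fell. Class I proteins are best known for water deficit responses, and HOX4 reduces gibberellin response and plant height in rice when overexpressed. HOX4 read 8.45, 8.39 and 8.39 in FL478 salt roots, against 7.56, 7.75 and 8.05 in FL478 control roots, and 7.76, 8.55 and 8.02 in IR29 salt roots, against 8.32 and 7.73 in IR29 control roots. It read 7.65, 8.79 and 8.03 in IR63731 salt roots, against 7.69, 7.88 and 7.94 in IR63731 control roots, and 8.30, 8.74 and 8.93 in Pokkali salt roots, against 7.72, 7.99 and 7.96 in Pokkali control roots. Salt arrays lay above every control array in FL478 and Pokkali and overlapped with them in IR29 and IR63731, and 9 of 12 salt arrays exceeded the control mean of their genotype. The change was 0.45 ± 0.13 (SE, adjusted p = 0.0333, limma), or 1.37-fold. The call was lost in 8 of 23 fits without a single array: FL478 salt replicate 1, FL478 control replicate 1, IR29 salt replicate 2, IR29 control replicate 2, IR63731 control replicate 1, Pokkali salt replicates 2 and 3 and Pokkali control replicate 1. Over these fits its adjusted p ran from 0.0109 to 0.101. HOX20, also of class I, followed HOX4 from array to array (r = 0.904 of the deviations from group means, the highest of the 1176 pairs), and its own change was 0.21 ± 0.12 (adjusted p = 0.364, limma). The other probe set of HOX20, which did not enter this r, had a change of 0.02 ± 0.13 (adjusted p = 0.959, limma). HOX20 was high in salt replicate 2 of IR29 (8.31, against 7.33 and 7.41 in the other salt arrays) and of IR63731 (8.36, against 7.27 and 7.44), as HOX4 was.

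The largest signals of class I belonged to HOX16, HOX5 and HOX6, with means of 11.56, 10.41 and 9.58. HOX16 was among the 3 brightest of all members. Its values were 11.62, 11.47 and 11.33 in FL478 salt roots, against 11.57, 11.46 and 11.58 in FL478 control roots, and 11.59, 11.57 and 11.78 in IR29 salt roots, against 11.80 and 11.42 in IR29 control roots. They were 11.32, 11.69 and 11.34 in IR63731 salt roots, against 11.73, 11.58 and 11.51 in IR63731 control roots, and 11.42, 11.73 and 11.57 in Pokkali salt roots, against 11.71, 11.55 and 11.62 in Pokkali control roots. Salt and control arrays of HOX16 overlapped in every genotype, and its change was -0.06 ± 0.06 (adjusted p = 0.677, limma). HOX5 had a change of -0.18 ± 0.08 (adjusted p = 0.158), the lowest of the class. HOX8 and HOX14 had changes of 0.26 ± 0.09 (adjusted p = 0.0983) and 0.29 ± 0.17 (adjusted p = 0.371). HOX14 is a relative of the barley row-type gene VRS1. Across the class 9 changes lay above 0 and 3 below it, with a median of 0.18.

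Of the 8 HD-Zip II genes, HOX1 rose and none fell. In rice HOX1 marks cells committed to vascular fate and, with HOX28, sets tiller angle. HOX1 values were 7.84, 7.30 and 7.56 in FL478 salt roots, against 7.23, 7.47 and 7.32 in FL478 control roots, and 8.32, 8.76 and 8.44 in IR29 salt roots, against 7.65 and 7.73 in IR29 control roots. They were 7.39, 8.21 and 7.41 in IR63731 salt roots, against 7.23, 7.47 and 6.79 in IR63731 control roots, and 7.49, 7.92 and 7.72 in Pokkali salt roots, against 6.99, 7.16 and 7.05 in Pokkali control roots. Salt arrays stood above all control arrays in IR29 and Pokkali, the groups overlapped in FL478 and IR63731, and 11 of 12 salt arrays exceeded the control mean of their genotype. The change of 0.55 ± 0.10 (SE, adjusted p = 0.0028, limma), or 1.46-fold, was the largest among the 49 members. Single genotypes ranged from 0.23 in FL478 to 0.82 in IR29. Its partner in tiller angle, HOX28, had a change of 0.00 ± 0.11, and HOX2 and HOX15, the brightest probe sets of the class with means of 9.78 and 8.50, had changes of -0.01 ± 0.08 and 0.23 ± 0.15. The median over the 8 genes was 0.00.

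None of the 5 HD-Zip III genes passed for salt. These genes pattern xylem and the upper side of leaves. HOX33, HOX10 and HOX9, the brightest of the class with means of 8.51, 8.01 and 7.33, had changes of 0.10 ± 0.07, -0.12 ± 0.11 and -0.03 ± 0.13 (SE). HOX32 and HOX29 had changes of 0.08 ± 0.13 and 0.02 ± 0.12. HOX10 has another probe set, whose change was 0.38 ± 0.15 (adjusted p = 0.137, limma), so its probe sets differ in sign.

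Of the 9 KNOX genes, HOS59 rose and none fell. HOS59 belongs to class II, whose members are expressed in differentiated organs in plants. Its values were 10.99, 10.99 and 10.94 in FL478 salt roots, against 11.05, 10.83 and 10.85 in FL478 control roots, and 10.93, 10.99 and 10.87 in IR29 salt roots, against 10.82 and 10.86 in IR29 control roots. They were 10.91, 11.14 and 10.79 in IR63731 salt roots, against 10.64, 10.66 and 10.56 in IR63731 control roots, and 10.998, 11.26 and 10.74 in Pokkali salt roots, against 10.35, 10.68 and 10.20 in Pokkali control roots. All 12 salt arrays exceeded the control mean of their genotype, with no overlap between the groups in IR29, IR63731 and Pokkali and overlap in FL478 through control replicate 1, at 11.05. Salt means ran from 10.93 to 10.998, and control means ran from 10.41 in Pokkali to 10.91 in FL478. The mean change was 0.27 ± 0.07 (SE, adjusted p = 0.0149, limma), or 1.20-fold. The gene missed the threshold when the 3 intermediate arrays were left out (0.25, adjusted p = 0.0928) and, once clock gene level was a covariate, had an adjusted p of 0.0641 (0.20). HOS58, the class II gene with the highest mean of all 49 probe sets, gave 11.66, 11.66 and 11.68 in FL478 salt roots, against 11.67, 11.67 and 11.67 in FL478 control roots, and 11.89, 11.80 and 11.86 in IR29 salt roots, against 11.64 and 11.91 in IR29 control roots. It gave 11.62, 11.82 and 11.78 in IR63731 salt roots, against 11.67, 11.60 and 11.64 in IR63731 control roots, and 11.70, 11.81 and 11.65 in Pokkali salt roots, against 11.40, 11.68 and 11.51 in Pokkali control roots. Its range over all 23 arrays was 0.51, and its change was 0.09 ± 0.04 (adjusted p = 0.243, limma). OSH45 and HOS66 had changes of -0.11 ± 0.08 and -0.18 ± 0.09 (adjusted p = 0.478 and 0.226).

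The 5 measured KNOX I genes, which act in shoot meristems, had 0 members passing. OSH71 was the brightest, with a mean of 7.51 and a change of 0.07 ± 0.08. OSH1, whose product maintains the rice shoot meristem, had a mean of 2.99, under the reporter median. OSH43 had a change of -0.17 ± 0.06 (adjusted p = 0.0679, limma) at a mean of 3.78, and it was the only member with all 12 salt arrays below the control mean of their genotype, as were 2.06% of all probe sets. Its other probe set had a change of -0.16 ± 0.06 (adjusted p = 0.111).

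Among the 7 WOX genes, WOX8 and WOX9 rose and none fell. WOX8 is also called WOX13 in the gene table, and overexpression of rice WOX13 has been linked to drought tolerance. Its values were 7.83, 8.04 and 7.96 in FL478 salt roots, against 7.52, 7.88 and 7.42 in FL478 control roots, and 7.58, 8.20 and 7.75 in IR29 salt roots, against 7.65 and 7.42 in IR29 control roots. They were 7.93, 8.20 and 7.96 in IR63731 salt roots, against 7.70, 7.89 and 7.56 in IR63731 control roots, and 8.09, 8.45 and 8.17 in Pokkali salt roots, against 7.95, 7.86 and 7.89 in Pokkali control roots. The changes were 0.33 in FL478, 0.31 in IR29, 0.31 in IR63731 and 0.33 in Pokkali, and all 12 salt arrays exceeded the control mean of their genotype. Their mean was 0.32 ± 0.08 (SE, adjusted p = 0.0130, limma), or 1.25-fold. Without the intermediate arrays it was 0.32 with an adjusted p of 0.0540. In all, 4 members, ROC4, ROC5, HOS59 and WOX8, had every salt array above the control mean of its genotype, as did 2.71% of all probe sets.

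WOX9 is the gene called QHB, a marker of the quiescent centre of the rice root. The gene table also gives it the synonym WOX5, which is there the name of the other gene that had no probe set of its own. Its change was 0.20 ± 0.06 (SE, adjusted p = 0.041, limma), made up of 0.38 in FL478, 0.37 in IR29, 0.04 in IR63731 and 0.01 in Pokkali, and 9 of 12 salt arrays exceeded their genotype's control mean. In FL478 and IR29 the salt and control arrays did not overlap, with salt means of 5.33 and 5.30, against control means of 4.95 and 4.93. Over the 23 fits without a single array the adjusted p ran from 0.0197 to 0.110. The call was lost when any of 13 arrays was left out. These arrays were FL478 salt replicate 1, FL478 control replicates 2 and 3, IR29 salt replicates 1 and 2, IR29 control replicate 2, IR63731 salt replicate 1, IR63731 control replicates 2 and 3, Pokkali salt replicates 2 and 3 and Pokkali control replicates 1 and 2. With a robust and trended eBayes prior in limma, and with the 3 prime minus 5 prime covariate, the WOX9 call was lost as well. WOX6, which acts in rice tiller angle together with WOX11, had a change of 0.29 ± 0.11 (adjusted p = 0.102), and its other probe set one of -0.02 ± 0.07.

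Salt was then compared with control within each genotype, and limma called 0 of 49 members in FL478, IR29, IR63731 and Pokkali, against 0.96%, 0.343%, 0.0717% and 0.341% of all probe sets, in either direction. Without adjustment 8, 6, 6 and 8 members had a p under 0.05, in the same order of genotypes. The smallest adjusted p-values belonged to HOS59 in Pokkali (0.59 ± 0.13, adjusted p = 0.0513) and to ROC4 in Pokkali (0.62 ± 0.14, adjusted p = 0.0579) and FL478 (0.52 ± 0.14, adjusted p = 0.0725). With the replicate number as a block, which the correlations of same-numbered arrays allow for FL478 and IR63731, ROC4 passed in FL478 (0.52, adjusted p = 0.0360), as did 2.81% of all probe sets. In IR29 the largest changes by p were those of HOX1 (0.82 ± 0.23, adjusted p = 0.175) and ROC4 (0.51 ± 0.15, adjusted p = 0.209). In IR63731 OSH43 came first, at -0.29 ± 0.11 (adjusted p = 0.447).

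Whether the genotypes differ in their response was tested as a difference of salt effects. limma called 0 of 49 members for FL478, IR63731 or Pokkali minus IR29, against 0.00175%, 0.0% and 0.0% of all probe sets, with 2, 0 and 5 members under an unadjusted p of 0.05. In the F test over all 4 genotypes, which called 0.0035% of probe sets, 0 of 49 passed and 2 members, WOX11 and HOS59, had an unadjusted p under 0.05 (0.0212 and 0.0346). WOX11, which drives emergence and growth of crown roots in rice, had the widest range of effects, from -0.67 in Pokkali to 1.44 in IR29. Its values were 3.20, 3.73 and 3.40 in FL478 salt roots, against 3.49, 3.59 and 3.52 in FL478 control roots, and 5.87, 3.63 and 5.78 in IR29 salt roots, against 3.66 and 3.64 in IR29 control roots. They were 4.15, 3.67 and 3.90 in IR63731 salt roots, against 3.48, 3.53 and 3.43 in IR63731 control roots, and 3.64, 4.01 and 3.43 in Pokkali salt roots, against 5.18, 3.78 and 4.15 in Pokkali control roots. IR29 salt replicates 1 and 3 stood above every other array, and IR29 salt replicate 2 lay with the IR29 control arrays. The next highest value was that of Pokkali control replicate 1. The difference of salt effects, Pokkali minus IR29, was -2.11 ± 0.62 (SE, adjusted p = 0.874, limma).

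HOX22 and HOX24, class I genes of the abscisic acid and drought response in rice, were read beside WOX11 in IR29. HOX22 read 6.18, 4.83 and 7.31 in IR29 salt replicates 1, 2 and 3, against 5.93 and 4.96 in IR29 control roots. HOX24 read 3.77, 2.79 and 4.20 in IR29 salt roots, against 3.23 and 3.05 in IR29 control roots. IR29 salt replicate 2 was the lowest of these arrays for both genes. Number 2 was not low in that group alone: it was the lowest HOX22 array in 8 of 8 groups and the lowest HOX24 array in 5. HOX22 in IR29 salt replicate 1 also lay below FL478 control replicate 3, at 6.22, and IR63731 salt replicate 3, at 6.30. Deviations from group means had an r of 0.841 for HOX24 with WOX11 and of 0.783 for HOX22 with HOX24, over 23 arrays. HOX24 and WOX11 both spread most among the IR29 salt arrays, and r without those arrays was not computed. The mean levels of HOX24 and WOX11, 3.14 and 3.91, also lay under the reporter 90th percentile of 4.01. The mean changes over 4 genotypes were 0.28 ± 0.21 for WOX11, 0.18 ± 0.24 for HOX22 and 0.00 ± 0.11 for HOX24, and none passed. The IR29 results turned on single arrays. With all arrays the IR29 change was 1.44 for WOX11 (adjusted p = 0.270) and 0.45 for HOX24 (adjusted p = 0.633). Without IR29 salt replicate 1 it was 1.05 for WOX11 (adjusted p = 0.590) and 0.36 for HOX24 (adjusted p = 0.826), and without replicate 3 it was 1.10 (adjusted p = 0.485) and 0.14 (adjusted p = 0.905). Without replicate 2, the array that read low, it was 2.17 (adjusted p = 0.0042) and 0.84 (adjusted p = 0.0201). The difference of salt effects, Pokkali minus IR29, ran from -2.84 to -1.71 for WOX11 and from -1.14 to -0.43 for HOX24 over the 23 fits without a single array, and passed only without IR29 salt replicate 2 (adjusted p = 0.0171 and 0.0394). These calls rest on leaving out the 1 array that differed most from the other IR29 salt arrays and are given as a description.

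**Figure D3:**
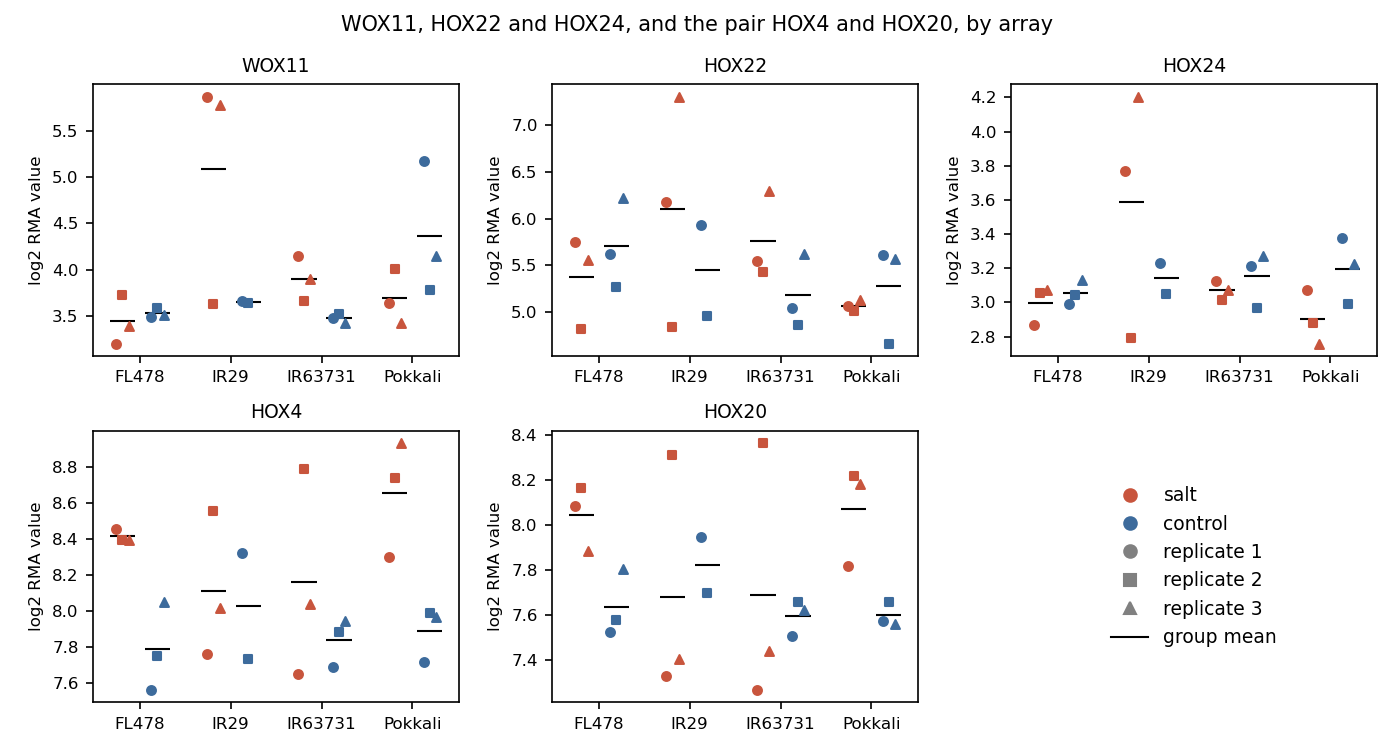
Log2 value on each array for WOX11, HOX22 and HOX24 and for the pair HOX4 and HOX20; red is salt, blue is control, symbols give the replicate number and bars are group means. WOX11 reaches 5.87 and 5.78 on IR29 salt replicates 1 and 3 and 3.63 on replicate 2, while HOX4 and HOX20 are both highest on replicate 2 among the IR29 and IR63731 salt arrays.

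Control roots were compared between genotypes to ask which homeobox genes differ without salt. Over 4 genotypes the F test called 0 of 49 members, against 6.68% of probe sets, and 10 members had an unadjusted p under 0.05. Of the 6 pairs of genotypes, only FL478 minus Pokkali had a member past the threshold: HOS59 was higher in FL478 control roots by 0.50 ± 0.13 (SE, adjusted p = 0.0276, limma), where 2.15% of probe sets were higher and 4.36% passed in either direction. The call on HOS59 did not hold without the 3 intermediate arrays (0.53, adjusted p = 0.0822) or in a fit of only the FL478 and Pokkali control arrays (adjusted p = 0.142), in which HOX19 passed instead (0.45, adjusted p = 0.0428, against 0.162 with all arrays). It was also lost when any of 4 single arrays was left out, FL478 control replicate 1 (adjusted p = 0.130), FL478 control replicate 3 (0.0575), Pokkali control replicate 1 (0.103) or Pokkali control replicate 3 (0.154). Same-numbered control arrays of FL478 and Pokkali deviated together (correlations of 0.225, 0.278 and 0.259), and with the replicate number as a block 5 members passed for this pair, against 6.02% of probe sets. HOS59 was again higher in FL478 (adjusted p = 0.0055), and HOX14 (-1.003, adjusted p = 0.0027), HOX21 (-0.68, adjusted p = 0.0344), HOX28 (-0.70, adjusted p = 0.0473) and HOS66 (-0.46, adjusted p = 0.0472) were lower in FL478. Without the block, the other pairs had 0 members passing, against 1.38% of probe sets for FL478 minus IR29, 2.44% for FL478 minus IR63731, 0.893% for IR63731 minus IR29, 3.6% for IR63731 minus Pokkali and 4.15% for Pokkali minus IR29. Their counts without adjustment were 4, 9, 2, 7 and 12. A difference between genotypes in a probe set can come from the level of RNA or from how well the probes match the sequence of a genotype, and these cannot be told apart.

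After HOS59 the members with the smallest p over control roots were HOX21, HOX6, HOX14, HOX28 and OSH71. HOX21 control arrays read 5.48, 6.13 and 5.88 in FL478, 6.14 and 5.70 in IR29, 6.28, 6.15 and 6.41 in IR63731 and 6.42, 6.28 and 6.82 in Pokkali (F test, adjusted p = 0.147, limma). HOX6 control arrays read 9.85, 9.62 and 9.60 in FL478, 9.17 and 8.73 in IR29, 9.86, 9.40 and 9.14 in IR63731 and 9.91, 9.24 and 10.02 in Pokkali (adjusted p = 0.173). All FL478 arrays of HOX21 lay below all IR63731 and Pokkali arrays, and both IR29 arrays of HOX6 were among the 3 lowest. HOX14 control arrays read 5.81, 5.46 and 4.60 in FL478, 5.18 and 5.61 in IR29, 6.36, 6.06 and 5.45 in IR63731 and 6.65, 6.20 and 6.03 in Pokkali (adjusted p = 0.209), and HOX14 also differs by replicate number, as given further on. With the replicate number as a block, given as a check only, the F test of HOX14 had an adjusted p of 0.0022. HOX28 control arrays read 6.86, 7.66 and 7.38 in FL478, 7.60 and 7.47 in IR29, 7.36, 7.72 and 7.90 in IR63731 and 7.74, 8.26 and 8.00 in Pokkali (adjusted p = 0.225). All FL478 and IR29 arrays of HOX14 lay below all Pokkali arrays, and all FL478 arrays of HOX28 lay below all Pokkali arrays. OSH71 control arrays read 6.92, 7.31 and 7.28 in FL478, 7.41 and 7.70 in IR29, 7.61, 7.75 and 7.63 in IR63731 and 7.51, 7.59 and 7.37 in Pokkali (adjusted p = 0.234), with all FL478 arrays below all arrays of the other genotypes. These genes were picked by their small p, and the share of all probe sets whose control groups separate in such ways was not counted.

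**Figure D4:**
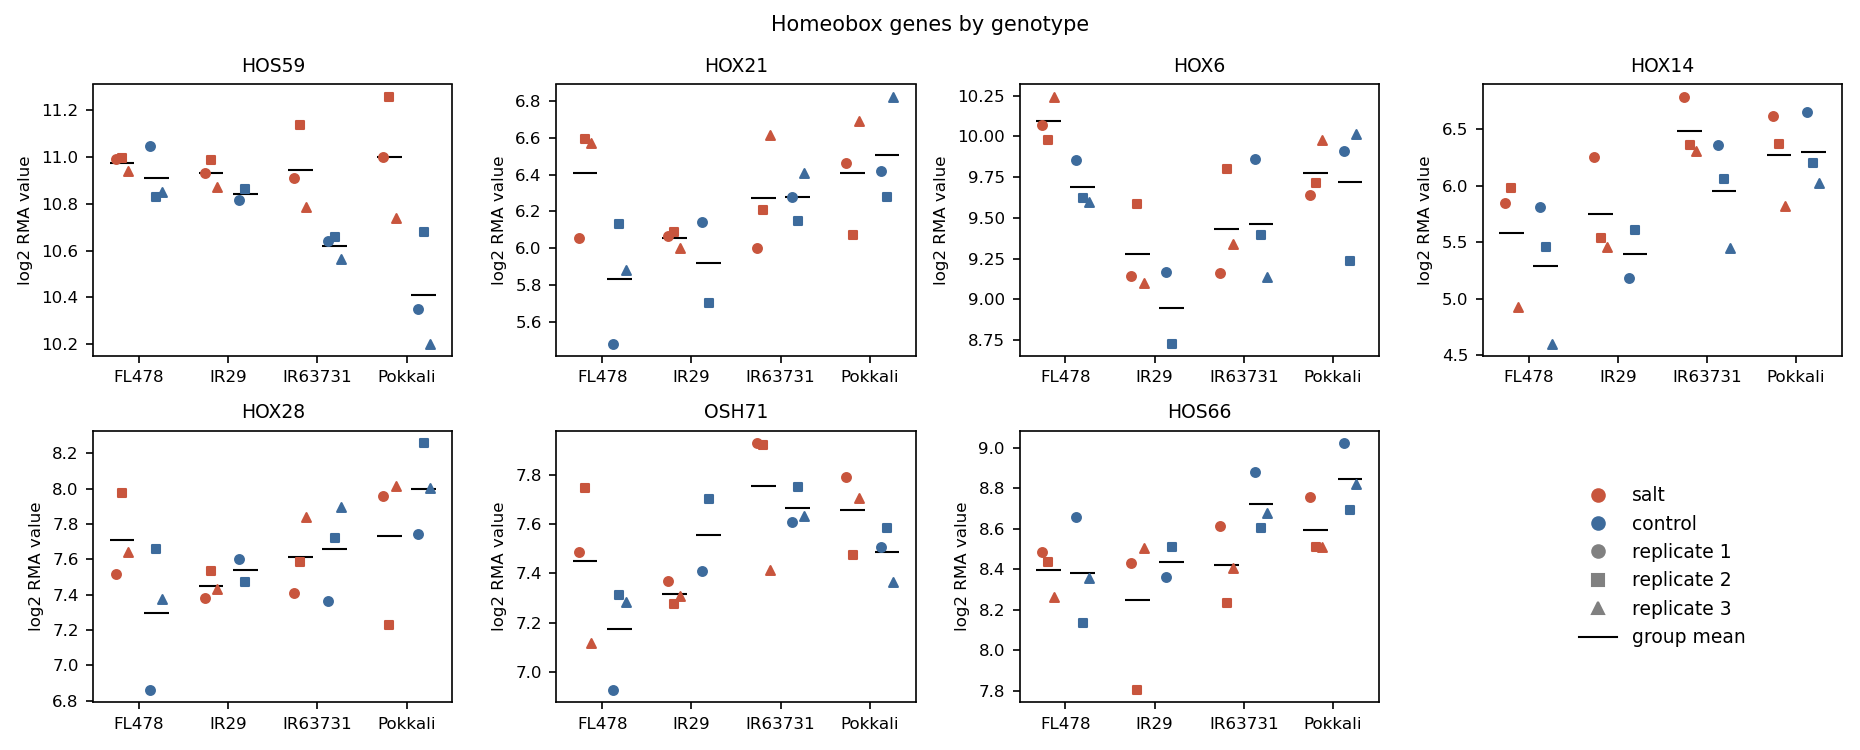
Log2 value on each array for HOS59, HOX21, HOX6, HOX14, HOX28, OSH71 and HOS66; red is salt, blue is control, symbols give the replicate number and bars are group means. The FL478 control arrays of HOX14, from 4.60 to 5.81, lie below its Pokkali control arrays, from 6.03 to 6.65.

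Replicate numbers were then tested as a factor, since the same number recurs in every group. For number 3 minus number 1, 4 of 49 members passed, all lower in number 3, against 1.38% of all probe sets. They were HOX10 (-0.36 ± 0.08, adjusted p = 0.0369), HOX29 (-0.49 ± 0.11, adjusted p = 0.0333), HOX9 (-0.52 ± 0.12, adjusted p = 0.0382) and HOX14 (-0.77 ± 0.12, adjusted p = 0.0104). For number 2 minus number 1, HOX10 (-0.41 ± 0.08, adjusted p = 0.0082) and HOX32 (-0.50 ± 0.10, adjusted p = 0.0118) passed, against 2.83% of probe sets. For number 3 minus number 2, HOX14 was lower (-0.53 ± 0.12, adjusted p = 0.0121) and HOX22 higher (1.00 ± 0.19, adjusted p = 0.0033), against 6.15% of probe sets. In all 6 members passed for some pair of numbers, and 4 of them are HD-Zip III genes, out of 5 measured. The exception in that class was HOX33, with -0.20 ± 0.07 for number 2 minus number 1 (adjusted p = 0.123). The share of all probe sets passing for any pair of numbers was not counted, so these counts over pairs have no baseline.

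The HD-Zip III genes varied together from array to array. The r of deviations from group means ran from 0.515 to 0.853 over their 10 pairs, with a median of 0.711, against a median of 0.009 over all 1176 pairs of members (23 arrays, which share replicate numbers). The pairs of all members include probe sets at or under the reporter 90th percentile, and 0 of the HD-Zip III probe sets were that dim. HOX10 deviations lay between 0.04 and 0.43 on the 8 arrays of number 1, between -0.35 and 0.06 on the 8 of number 2 and between -0.28 and 0.06 on the 7 of number 3. HOX32 deviations lay between 0.00 and 0.46 for number 1, between -0.52 and -0.06 for number 2 and between -0.30 and 0.22 for number 3. HOX9 deviations lay between -0.10 and 0.54 for number 1, between -0.25 and 0.21 for number 2 and between -0.71 and -0.02 for number 3. Number 1 had the highest mean for each of these genes. Arrays of number 1 and number 2 overlapped for HOX9 and HOX10, while for HOX32 no array of number 2 reached any array of number 1. The clock measure also differed by number: it averaged -2.89 ± 1.77 for number 1, 0.51 ± 0.98 for number 2 and -3.92 ± 0.86 for number 3 (log2, SD, n = 8, 8 and 7). The 3 prime minus 5 prime measure averaged 0.66 ± 0.06, 0.65 ± 0.10 and 0.63 ± 0.13 in the same order. Their part in the HD-Zip III differences was not tested.

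**Figure D5:**
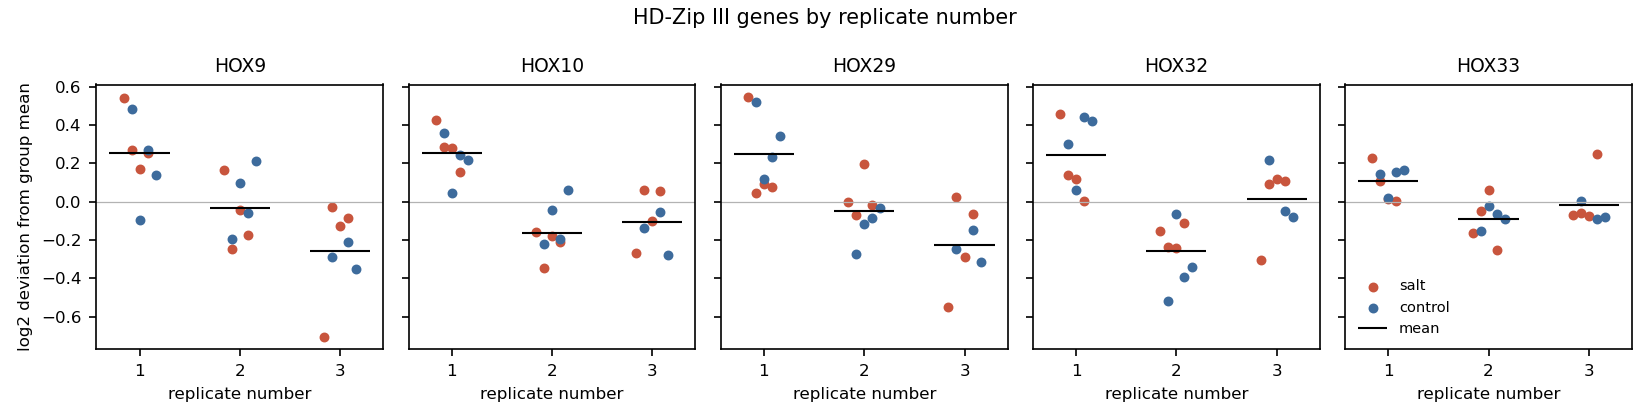
Deviation of each array from its group mean (log2) for the 5 HD-Zip III genes, by replicate number; red is salt, blue is control and bars are means over the arrays of a number. Number 1 has the highest mean for each gene, from 0.11 for HOX33 to 0.25 for HOX9.

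Genes around the homeobox factors were counted in the mean of 4 genotypes, against the 10.7% of gene probe sets that rose and 5.41% that fell, or 4.95% and 3.36% of all probe sets. In the gibberellin and cytokinin list, pathways that KNOX proteins act on in plants, 0 of 15 measured genes rose and 3 fell, all encoding LOG-like enzymes that activate cytokinin: LOGL1 (-0.70 ± 0.09, adjusted p = 6.9e-05), LOGL7 (-0.56 ± 0.10, adjusted p = 0.0017) and LOGL9 (-0.25 ± 0.07, adjusted p = 0.0411). The mean level of LOGL9, 3.88, lay under the reporter 90th percentile of 4.01. In the root patterning list 2 of 9 rose, the cytokinin response regulators RR1 (0.77 ± 0.16, adjusted p = 0.0053) and RR6 (0.41 ± 0.11, adjusted p = 0.0224). The list of polarity partners of HD-Zip III had 2 of 10 higher, the auxin response factor gene ARF3 (0.31 ± 0.09, adjusted p = 0.0344) and the Argonaute gene AGO1D (0.61 ± 0.13, adjusted p = 0.0059). In the abscisic acid response list 1 of 12 rose, the dehydrin gene RAB21 (0.79 ± 0.12, adjusted p = 0.00056), and of 5 genes of other homeobox families HAZ1 rose (0.25 ± 0.06, adjusted p = 0.0175). Neither of 2 brassinosteroid inactivation genes passed. Median changes of these 6 lists, with the brassinosteroid genes included, lay between -0.03 and 0.16.

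Marker lists of other tissues and cell types were counted as well. In the same comparison 0 of 4 shoot photosynthesis, 0 of 13 dividing cell, 0 of 1 root hair, 0 of 3 endodermis, 0 of 3 lignified vessel, 0 of 2 anther and 0 of 4 clock genes passed, and 1 of 8 seed genes fell, GLUB5 (-0.33 ± 0.08, adjusted p = 0.0153). The mean level of GLUB5, 3.26, lay under the reporter 90th percentile of 4.01. Many names of these lists were not matched in the table or had no probe set of their own, and those genes were not analysed here.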

How the data were processed

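Root RNA of 4 rice genotypes under salt and control conditions was measured on 23 Affymetrix arrays. The authors deposited log2 intensities, 1 column per array. Per the submitters' processing notes they come from RMA. Its version, the probe set definition and the genome build are not given in the sources. RMA ties array distributions together, so a shift shared by all genes would not show.

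The tested set of 57194 probe sets leaves out 123 array controls and 64 reporters from 57381. Gene names came from the array annotation, in which 22436 probe sets had 1 gene, and from the RefSeq gene table, which served for names and neighbours only. The homeobox genes, the gene lists and the alternatives were chosen with earlier results of these data known.

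The 8 group means were fitted over all 23 arrays with limma 3.58.1 in R 4.3.3, without a block, so that groups of 2 or 3 arrays share 1 estimate of the spread. All tests were two-sided. P-values were adjusted by the Benjamini-Hochberg method over all tested probe sets, with a threshold of 0.05. To check for pairing, deviations from group means were correlated between salt and control arrays of 1 number. The correlation was over 0.1 in every pair for FL478 (0.421, 0.197 and 0.287) and IR63731 (0.142, 0.296 and 0.252), but not for IR29 (-0.179 and 0.119) or Pokkali (-0.0660, -0.0156 and 0.316). Control arrays were checked likewise between genotypes. Genes named with each array's value were those passing for salt in the mean of 4 genotypes, up to 6 by size, the 6 with the smallest p among control roots and the 3 with the highest mean. WOX11, HOX20, HOX22 and HOX24 were named after their values were seen.

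The alternatives changed 1 choice at a time: replicate number as a block, only probe sets above the median one, a robust and trended eBayes prior, a further quantile normalization, no probe sets ending _s_at or _x_at, a gene's probe sets averaged, only the arrays compared, the 3 intermediate arrays or each single array left out, and a 3 prime minus 5 prime or clock covariate. The code was tested on simulated data. Depth is not defined for arrays, and their number limits the precision. Plots were made with Python 3.11.15 and matplotlib 3.10.9. No sequence or coordinate is printed, because no table used here holds them for the build of the array.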

Additional observations from a re-analysis of the deposited data

How the results depend on the processing

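Of the 7 homeobox genes that rose in the mean of 4 genotypes, ROC4 and HOX1 passed in every setting tried (adjusted p from 0.000143 to 0.00337 and from 0.00059 to 0.0443), and none of the 7 changed sign in that mean. Changes near 0 did change sign. HOX28 was -0.011 with the replicate block, -0.042 with a further quantile normalization, -0.0049 without the 3 intermediate arrays, -0.021 with the 3 prime minus 5 prime covariate and -0.023 with the clock covariate. With the block HOX24 was -0.0098 and HOX9 0.00037. HOX29 was -0.019 with quantile normalization and, with the 3 prime minus 5 prime covariate, -0.12, where HOX33 was -0.00096. HOX2 was 0.015 without the 3 intermediate arrays, HOX10 was 0.13 with the mean of a gene's probe sets and OSH71 was -0.0042 with the clock covariate. WOX9 in Pokkali was -0.00126 with quantile normalization and -0.049 with the 3 prime minus 5 prime covariate. Fits without a single array ranged from -0.073 to 0.10 for HOX24, -0.054 to 0.039 for HOX2, -0.053 to 0.065 for HOX28, -0.048 to 0.089 for HOX29 and -0.099 to 0.057 for HOX9, and for WOX9 from -0.045 to 0.092 in IR63731 and from -0.056 to 0.064 in Pokkali. The count of rising members was 4 without the 3 intermediate arrays and 3 with the 3 prime minus 5 prime covariate. It ran from 5 to 8 when single arrays were left out, with 0 to 1 falling. The replicate block raised it to 8 by adding HOX14 (0.34, adjusted p = 0.0270). Within genotypes, FL478 had 1 member passing with the block and 1 with the filter at the median probe set, ROC4 both times. Pokkali had 2 with the block, ROC4 (adjusted p = 0.0205) and HOS59 (0.0078), 2 with the filter, and 1 each, HOS59, with trend and robust and with the mean of a gene's probe sets. In control roots, FL478 minus Pokkali had 5 passing with the replicate block and 0 without the 3 intermediate arrays. With the block HOX14 was the 1 member passing for Pokkali minus IR29 (1.12, adjusted p = 0.0035), and 2 members, HOX14 and HOS59, passed the F test over control roots. That F test had 1 member passing with the filter, HOS59, and 1 with the mean of a gene's probe sets, HOX5, which was also the 1 passing for IR63731 minus Pokkali there. For salt in Pokkali and IR29, and for control roots outside FL478 minus Pokkali and FL478 minus IR63731, same-numbered arrays did not all pass the minimum correlation or were fewer than 3 pairs, so the block is given there as a check only. Replicate numbers still differed for some homeobox genes and for the clock measure over all groups. Leaving out single arrays gave 0 to 2 members passing for salt in IR29 and in Pokkali, 0 to 3 for FL478 minus Pokkali, 0 to 1 for IR63731 minus Pokkali and 0 to 2 for Pokkali minus IR29 in control roots. It gave 0 to 2 in the F test over control roots and 0 to 2 for the difference of salt effects, Pokkali minus IR29, the 2 being WOX11 and HOX24 without IR29 salt replicate 2. The remaining comparisons had 0 members passing whichever array was left out. Over all 49 members, comparisons and alternatives, a call was gained 48 times, 9 of them in the mean of 4 genotypes, and lost 41 times, 35 of them in that mean. Where no value or the setting itself shows it, the cause was not tested. Values near those of the reporter probe sets limit what can be said of the 13 dim members.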

Other observations

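HOX2 and HOX28, HD-Zip II genes next to each other on chromosome 6 in the gene table, had an r of 0.456 between their deviations from group means over 23 arrays. OSH1 and OSH3, KNOX I genes on chromosome 3 with 1 gene between them, had an r of 0.054. Both values are descriptions, since the arrays share replicate numbers.

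Several probe sets were listed for 10 of the 49 homeobox genes, with a single direction of the mean salt effect for 5 of them. HOX10 had the widest split, at -0.12 ± 0.11 for the probe set used and 0.38 ± 0.15 for the other (log2, SE). WOX6 had 0.29 ± 0.11 and -0.02 ± 0.07. Among pairs of different classes, HOX14 and HOX9 had an r of 0.794 and HOX14 and ROC1 one of -0.793 between their deviations from group means over 23 arrays.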
